A study of Mus musculus with 51 samples.

Results

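The collagen genes are the 43 rows, of 33773 in the deposited expression matrix, whose symbol names a mouse collagen chain (Col, a type number, a and a chain number). They were followed through all 6 groups of RNA-seq libraries of a study of liver transcription factors: 15 libraries of hepatocytes and 6 of liver. The members comprised 11 fibrillar chains, 6 chains of basement membrane collagen IV, 6 beaded filament chains of collagen VI, 9 fibril-associated chains, 4 transmembrane chains, 3 chains of short-chain network collagens, 2 multiplexins, 1 anchoring fibril chain and Col28a1.

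The triple null group (FoxA_triple_null, 4 libraries) came from mice with loxP-flanked FoxA1 and FoxA2 alleles (FoxA1L/L FoxA2L/L) and no FoxA3 (FoxA3-/-), in which Cre recombinase was delivered at 8 weeks of age by an AAV8 virus, under the hepatocyte-specific Tbg promoter. The FoxA3 null group (FoxA3_null, 4 libraries) lacked FoxA3 and is taken here as the control described in the design text, which received AAV with GFP in place of Cre. The lox group (FoxA1/A2_lox, 3 libraries) and the Cre alfp group (FoxA1/A2_Cre_alfp, 4 libraries) both carried FoxA3, and the second of them a Cre labelled alfp. What drives that Cre, when it acts, and the ages of these animals are not given in the sources used here. HNF4a control (2 libraries) and HNF4a null (4 libraries) are labelled liver, not hepatocytes, and by the design text HNF4a was depleted in adult animals.

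Collagens are triple-helical proteins of the extracellular matrix, assembled from chains that are each the product of a separate gene. In liver the fibril-forming collagens I and III are made mainly by stellate cells and fibroblasts, collagen IV lines vessels and sinusoids, and collagen XVIII, a heparan sulfate proteoglycan whose C-terminal fragment is endostatin, is made in quantity by hepatocytes themselves. FoxA1, FoxA2, FoxA3 and HNF4a are transcription factors of hepatocytes.

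As a check of the labels, Foxa3 stood at 0.0114 RPKM or less in each of the 8 libraries without FoxA3 and between 19.0 and 34.5 in the 7 others from hepatocytes. Foxa2 was at 0.243 to 0.470 RPKM in the triple null against 11.1 to 20.6 in FoxA3 null, and at 0.991 to 1.26 in Cre alfp against 6.84 to 19.2 in lox. Foxa1 kept 3.04 to 3.63 RPKM in the triple null, against 6.14 to 10.2 in FoxA3 null, and 1.14 to 1.34 in Cre alfp, against 4.705 to 8.21 in lox. Hnf4a stood at 126 and 118 RPKM in control liver and at 519, 545, 487 and 545 RPKM in the group labelled HNF4a null, which goes against the label; which part of the transcript these reads cover is not known here, so directions below belong to libraries by label only. The groups did differ in hepatocyte genes, such as the asialoglycoprotein receptor chain Asgr1, at 361 and 443 RPKM in control liver and at 9.55 to 17.2 in the labelled null. RPKM is a read number scaled to gene length and to the library's total, and depth relative to the shallowest library was 2.01 to 4.07 in hepatocyte libraries and 1.0 to 1.10 in liver libraries, so low values are least precise in liver.

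Collagen expression in hepatocytes was dominated by a single chain. Col18a1 made up 68.3% to 71.4% of the summed RPKM of all 43 chains in lox hepatocytes, 76.7% to 81.0% in Cre alfp, 84.3% to 91.0% in FoxA3 null and 62.7% to 80.3% in the triple null. In the triple null the summed level of all chains fell to between 41.8 and 49.2 RPKM, against 164 to 204 in FoxA3 null, 109 to 149.6 in Cre alfp and 162 to 193.5 in lox; this sum was not tested. In lox hepatocytes 3 chains had a mean of at least 10 RPKM, Col18a1, Col27a1 and Col5a3, and 9 had at least 1. In control liver 16 chains reached a mean of 1 RPKM, and in the libraries labelled HNF4a null 18 did.

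At the other end, 29 of the 43 chains stayed under 1 RPKM in every hepatocyte library and 20 did so in all 21 libraries. The cartilage chain Col2a1 peaked at 0.00241 RPKM and Col11a1 at 0.0367, and the hemidesmosomal chain Col17a1 at 0.491 in a control liver library. Col24a1, the anchoring fibril chain Col7a1 and Col9a3 peaked at 0.630, 0.606 and 0.520 RPKM, and the other 13, from types IV, VI, VIII, IX, XIX, XXII, XXIII and XXVIII, at 0.254 or less. Col10a1, a chain of hypertrophic cartilage, was at 0.0128 RPKM or less in every hepatocyte library and at 0.226 to 0.494 in the 6 liver libraries. The filter on low values (at least 1 RPKM in 3 hepatocyte libraries, or in 2 libraries where liver entered the test) therefore left 9 chains to test among hepatocytes, 21 within liver and 23 between liver and hepatocytes. A chain that passes this filter through 1 group only had to be high there, so the counts below describe the tested chains and not the whole family.

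**Figure D1:**
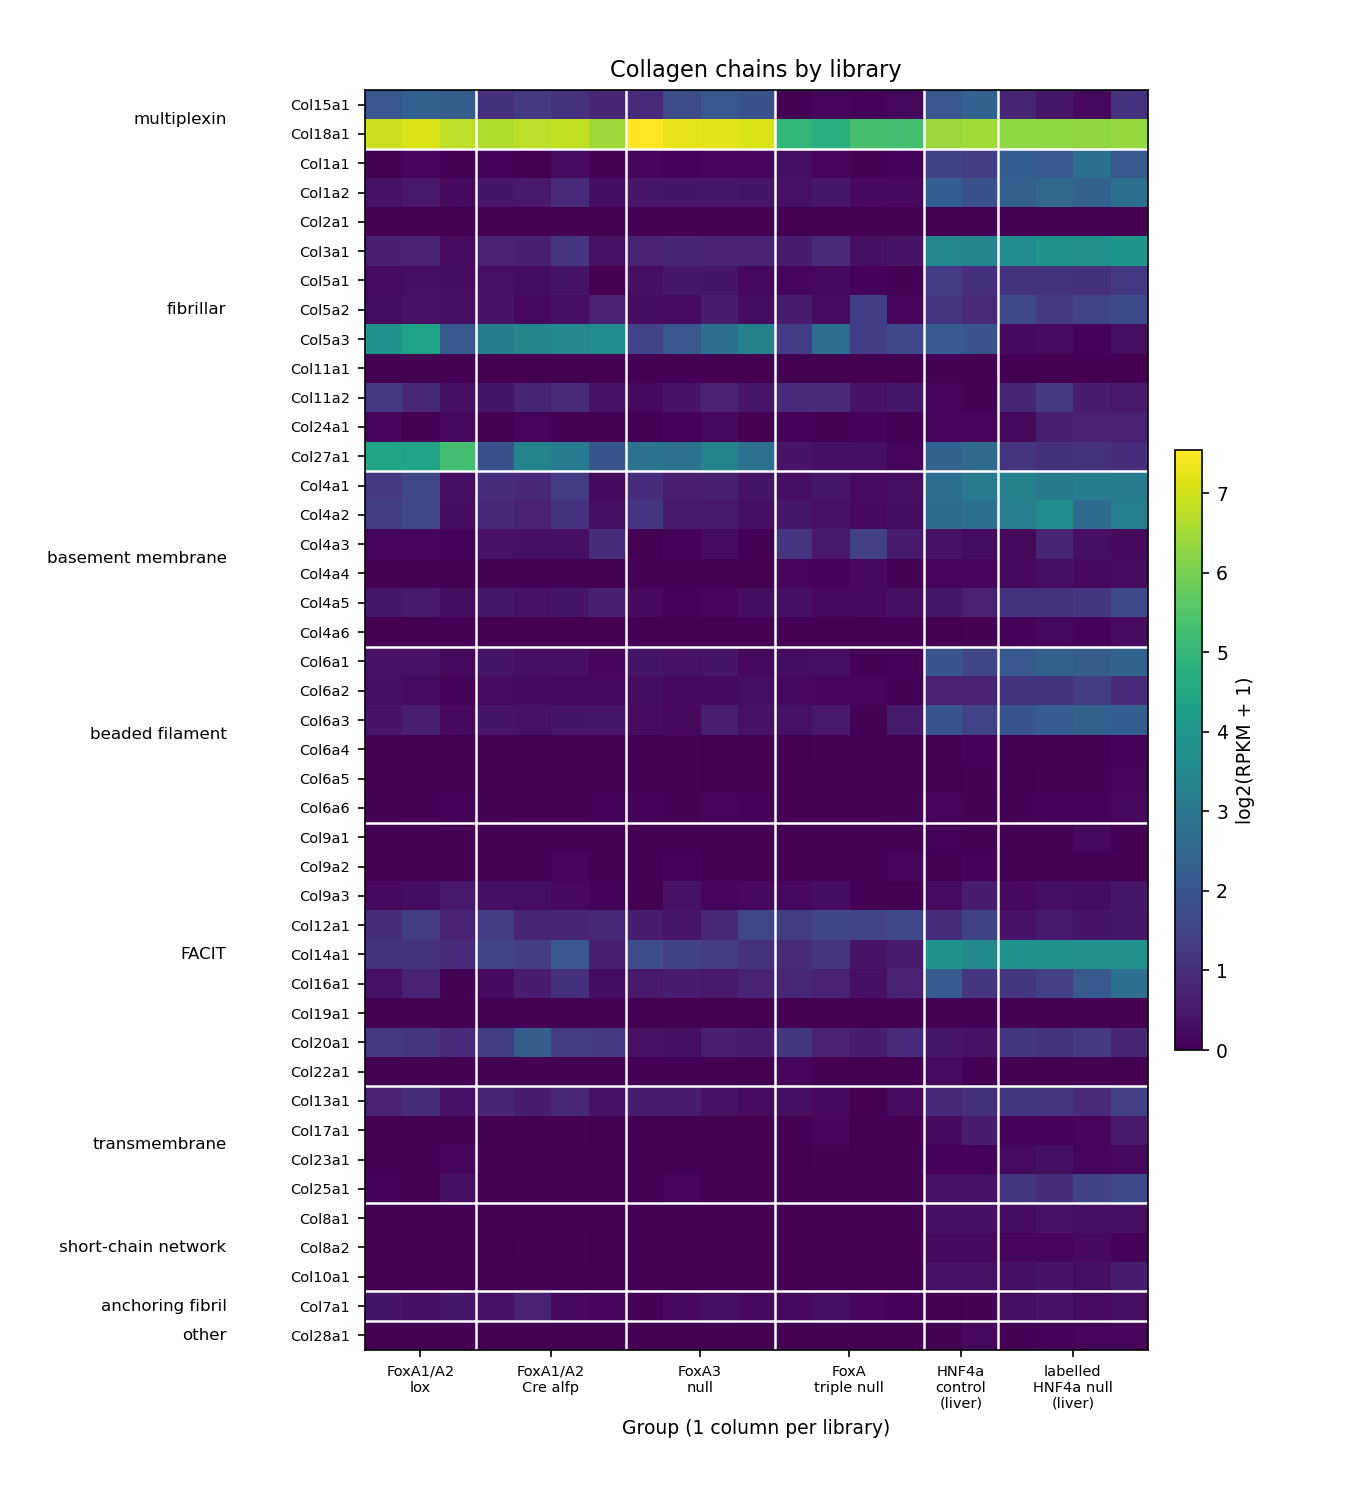
Heat map of log2(RPKM + 1) for the 43 collagen chains (rows, by structural class) in 21 libraries (columns, by group). Col18a1 is the brightest row in every library, and Col1a1, Col3a1 and Col14a1 are brighter in the 6 liver libraries than in any of the 15 hepatocyte libraries.

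The main comparison, triple null against FoxA3 null, asks how the adult hepatocyte changes on deletion of FoxA1 and FoxA2 where FoxA3 is already absent. Foxa1 transcript stayed at 3.04 to 3.63 RPKM after this deletion, as given above. Of the 9 tested chains, 3 fell, Col18a1, Col27a1 and Col15a1, and 1 rose, Col12a1, with adjusted p under 0.05 (limma, Benjamini-Hochberg over all 11500 genes tested). Among all genes tested, 12.3% passed as lower and 17.4% as higher. The median difference of the 9 chains was -0.64 on the log2(RPKM + 1) scale, against 0.05 over all genes.

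Col18a1 values were 186, 155, 150.0 and 138 RPKM in FoxA3 null and 30.7, 26.2, 39.3 and 38.0 RPKM in triple null hepatocytes. Every triple null library lay below every other library of the study, and the groups did not overlap. The mean fell from 157 ± 20.1 to 33.6 ± 6.20 RPKM (SD, n = 4 each), or to 21.3% of the control mean. The log2(RPKM + 1) difference was -2.21 (SE 0.14, limma adjusted p = 5.5e-08).

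Col27a1 encodes a fibrillar chain best known from cartilage. Its FoxA3 null values were 6.51, 6.18, 9.34 and 6.11 RPKM, and it stood at 0.308, 0.244, 0.238 and 0.104 in the triple null. The control mean of 7.04 ± 1.54 RPKM was 31.5 times the triple null mean of 0.224 ± 0.0857 (SD, n = 4 each). The fitted difference was -2.70 (SE 0.30, limma adjusted p = 1.47e-05), smaller than the ratio of means because the added 1 damps low values.

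Col15a1 encodes the other multiplexin, a proteoglycan of basement membranes. It was at 0.883, 2.40, 3.24 and 2.77 RPKM in FoxA3 null and at 0.00122, 0.0693, 0.0481 and 0.124 in the triple null. The lowest control library was thus above the highest triple null library, although the controls themselves spread from 0.883 to 3.24. The difference was -1.58 (SE 0.20, limma adjusted p = 5.3e-05). In the authors' deposited table of this comparison the log2 fold changes, on their unpadded scale, were -2.28 for Col18a1, -5.01 for Col27a1 and -5.67 for Col15a1, with mean normalized counts of 13890, 682 and 91.6.

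The chains that fell were not from 1 structural class, and their promoters are printed because these members fell in the same comparison, triple null against FoxA3 null. The sequences are the 250 bases before each annotated transcription start, read 5′ to 3′ along the gene from RefSeq (GRCm38.p6), with every CG dinucleotide in capitals. Col18a1 has annotated starts at 2 places, and the downstream one is the promoter known for use in liver; the matrix does not say which start the reads came from.
Col18a1 upstream start (chr10:77166531-77166780, minus strand): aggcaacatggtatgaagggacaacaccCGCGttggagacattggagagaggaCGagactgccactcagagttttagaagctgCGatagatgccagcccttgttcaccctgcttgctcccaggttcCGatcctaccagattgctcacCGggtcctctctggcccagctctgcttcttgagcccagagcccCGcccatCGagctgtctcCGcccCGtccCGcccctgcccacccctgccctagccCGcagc
Col18a1 downstream start (chr10:77113706-77113955, minus strand): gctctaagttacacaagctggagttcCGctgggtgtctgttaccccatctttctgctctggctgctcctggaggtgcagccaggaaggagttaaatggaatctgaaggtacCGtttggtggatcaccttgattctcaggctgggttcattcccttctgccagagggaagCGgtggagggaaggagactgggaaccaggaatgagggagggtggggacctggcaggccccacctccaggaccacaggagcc
Col27a1 (chr4:63215162-63215411, plus strand): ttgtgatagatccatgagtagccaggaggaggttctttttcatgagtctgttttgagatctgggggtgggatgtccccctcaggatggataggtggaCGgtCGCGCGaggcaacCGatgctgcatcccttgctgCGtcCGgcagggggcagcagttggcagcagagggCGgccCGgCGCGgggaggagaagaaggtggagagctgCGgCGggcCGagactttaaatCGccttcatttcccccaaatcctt
Col15a1 (chr4:47207762-47208011, plus strand): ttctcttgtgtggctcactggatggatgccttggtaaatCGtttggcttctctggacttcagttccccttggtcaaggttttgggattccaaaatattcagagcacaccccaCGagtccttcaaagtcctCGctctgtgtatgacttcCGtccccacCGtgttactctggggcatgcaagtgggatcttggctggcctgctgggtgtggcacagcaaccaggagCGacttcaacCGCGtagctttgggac

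The windows differed in CG content, with 12 CG dinucleotides at the upstream Col18a1 start, 3 at its downstream start, 15 at Col27a1 and 8 at Col15a1, against a median of 6 over 32851 windows of that length. A search of both strands for the forkhead letters TGTTTAC, which are not part of the HNF4-type letters searched next, found none in these 4 windows. Of all windows, 3.17% held at least 1. The HNF4-type letters CAAAGTCCA, CAAAGTTCA and CAAAGGTCA, present in 1.14% of all windows, were also not found in them. Of the 43 chains, 35 had at least 1 window, 38 windows in all, and the forkhead letters occurred in 1 of these windows, that of Col6a1. A window without a match says only that these letters are not in its 250 bases.

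Deletion of FoxA1 and FoxA2 with FoxA3 still present (Cre alfp against lox) lowered Col27a1 and Col15a1. These were 2 of 9 tested chains, with no chain higher; over all genes 2.62% passed as lower and 2.84% as higher. Col27a1 was at 20.9, 19.4 and 38.1 RPKM in lox and at 2.70, 9.29, 7.71 and 3.08 in Cre alfp. Its difference was -2.10 (SE 0.33, limma adjusted p = 0.00163), with no overlap between the groups. Col15a1 was at 3.10, 4.07 and 3.83 RPKM in lox and at 1.02, 1.45, 1.09 and 0.737 in Cre alfp. All 4 Cre alfp libraries lay below the lowest lox library, and the difference was -1.18 (SE 0.22, limma adjusted p = 0.00632).

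Col18a1 behaved otherwise in this pair. It was at 125, 136 and 111 RPKM in lox and at 99.7, 109, 115 and 86.2 in Cre alfp, where the groups overlapped. The difference of -0.27 (95% interval -0.61 to 0.06, limma adjusted p = 0.392) did not pass. The interaction, which subtracts the Cre alfp minus lox difference from the triple null minus FoxA3 null difference, was -1.93 for Col18a1 (SE 0.21, limma adjusted p = 4.02e-05). The effect of deletion on Col18a1 thus differed between FoxA3-null and FoxA3-carrying pairs, and was the larger where FoxA3 was absent. The pairs also differ in the Cre used and in the Foxa1 and Foxa2 transcript left. Foxa1 stood at 3.04 to 3.63 RPKM in the triple null and at 1.14 to 1.34 in Cre alfp. Foxa2 stood at 0.243 to 0.470 RPKM in the triple null and at 0.991 to 1.26 in Cre alfp. FoxA3 status cannot be told apart from these differences.

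Of the 9 tested chains 1, Col18a1, passed for the interaction, with 6.17% of all genes passing as lower and 8.25% as higher. The interaction was -0.41 for Col15a1 (95% interval -1.05 to 0.24) and -0.60 for Col27a1 (-1.56 to 0.36), neither of which passed with limma adjusted p of 0.387 and 0.392. With a pseudocount of 0.1 in place of 1 both also passed, making 3 chains. Leaving out the first or the fourth FoxA3 null library, or the fourth Cre alfp library, gave 2 chains in place of 1.

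**Figure D2:**
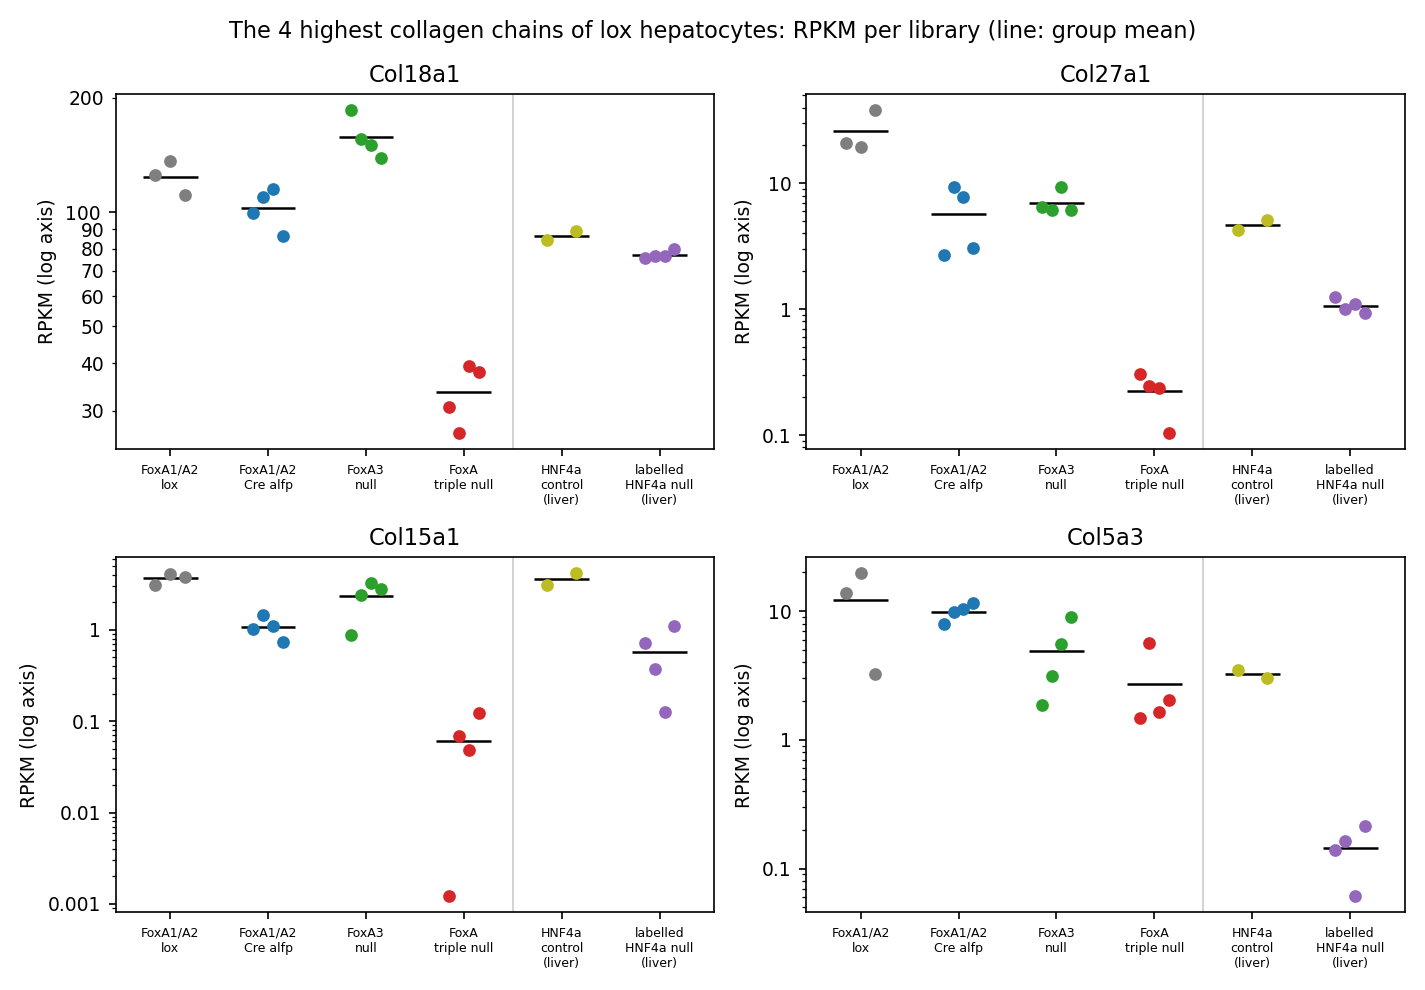
RPKM per library (log axis) of the 4 collagen chains with the highest mean in lox hepatocytes, by group, with a line at each group mean. The 4 triple null points lie below all other points for Col18a1, at 26.2 to 39.3 RPKM, and Col5a3 is lowest in the libraries labelled HNF4a null.

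**Figure D3:**
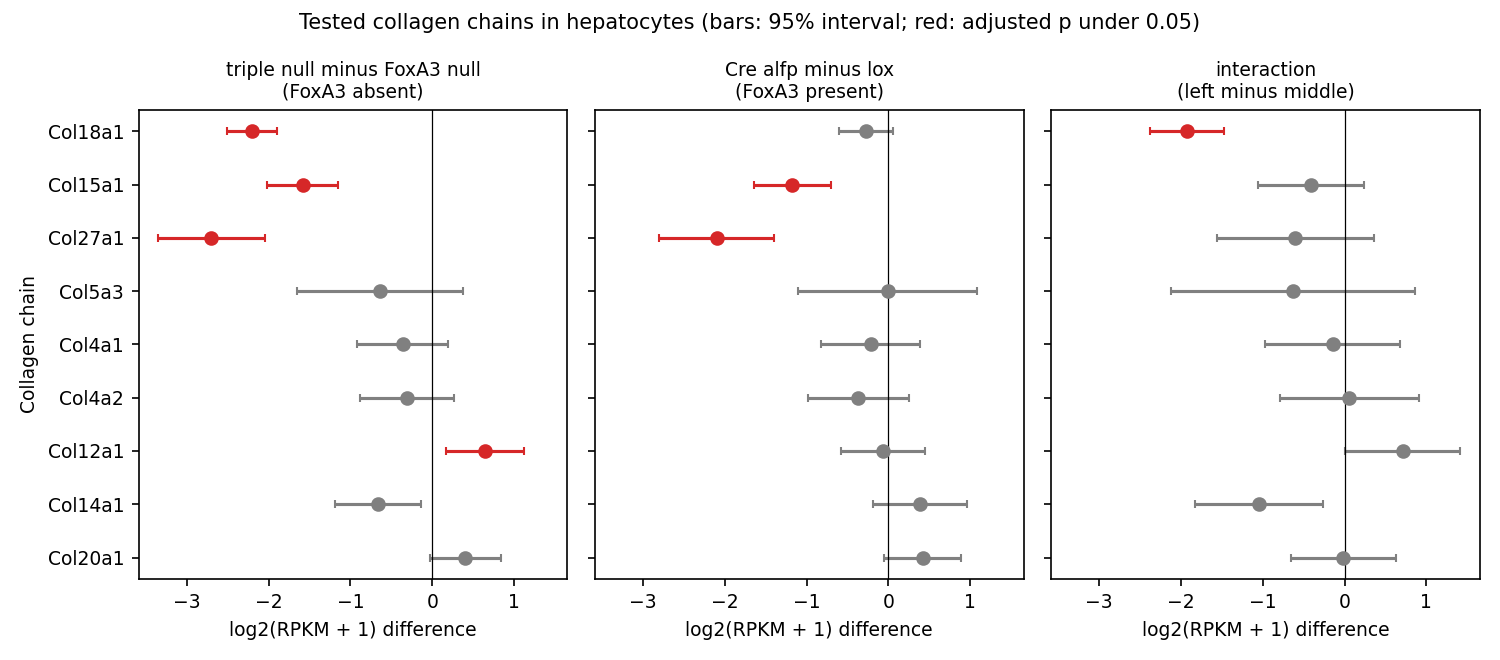
Differences in log2(RPKM + 1) with 95% intervals for the 9 tested chains in triple null minus FoxA3 null, Cre alfp minus lox, and the interaction of the pair. Red points passed at adjusted p under 0.05: Col18a1 passes on the left and for the interaction but not in the middle, where its interval runs from -0.61 to 0.06.

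The remaining hepatocyte comparisons set groups with and without FoxA3 against each other, or share their control libraries with the pairs above, and their all-gene medians were shifted, by 0.13 for triple null against lox, 0.13 for triple null against Cre alfp and 0.10 for FoxA3 null against lox. FoxA3 status and anything else that separates these sets of libraries cannot be told apart. Against lox, 6 of 9 chains were lower in the triple null and none higher, with 14.8% of all genes lower and 27.7% higher. Relative to the median of all genes the differences were -4.54 for Col27a1, -2.26 for Col15a1, -2.0 for Col18a1, -1.81 for Col5a3, -0.90 for Col4a2 and -0.88 for Col4a1. Without the first or without the second lox library 3 chains passed in place of 6.

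Against Cre alfp, 6 of 9 chains were again lower in the triple null, with 14.4% of all genes lower and 26.9% higher. Relative to all genes, the differences were -2.44 for Col27a1, -1.80 for Col5a3, -1.72 for Col18a1, -1.08 for Col15a1, -0.81 for Col20a1 and -0.78 for Col14a1. Here 3 of the 6, Col18a1, Col27a1 and Col5a3, were past a log2 difference of 1 in size before the shift was taken off.

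FoxA3 null against lox passed 2 chains, both lower, with 13.0% of all genes lower and 21.7% higher. They were Col27a1, at -1.81 relative to all genes (limma adjusted p = 0.00227), and Col20a1, at -0.77 (limma adjusted p = 0.0300). Col18a1 was not called, at 0.24 relative to all genes (limma adjusted p = 0.102), although every FoxA3 null library was above every lox library. Without the third lox library 5 chains passed, and without either of the others 1 did, as without the first or the second FoxA3 null library.

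The order of the groups differed between these chains. For Col27a1, lox was highest at a mean of 26.2 ± 10.4 RPKM (n = 3), FoxA3 null at 7.04 ± 1.54 and Cre alfp at 5.69 ± 3.31 (n = 4 each) came next with overlapping libraries, and the triple null was lowest at 0.224 ± 0.0857 (n = 4). For Col15a1 the order of means was lox at 3.67 ± 0.505, FoxA3 null at 2.32 ± 1.02, Cre alfp at 1.07 ± 0.292 and triple null at 0.0606 ± 0.0509 RPKM, and of its neighbours lox and FoxA3 null, and FoxA3 null and Cre alfp, had overlapping libraries. For Col18a1 the order was FoxA3 null, lox at 124 ± 12.9, Cre alfp at 103 ± 12.6 and triple null, with overlap between lox and Cre alfp.

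Col5a3, a minor fibrillar chain that joins collagen V trimers, was one of the 3 highest chains of lox hepatocytes and varied widely between libraries. It was at 13.8, 19.6 and 3.23 RPKM in lox, 7.91, 9.77, 10.4 and 11.6 in Cre alfp, 1.88, 3.15, 5.56 and 8.97 in FoxA3 null and 1.49, 5.62, 1.65 and 2.04 in the triple null. The third lox library stood well under the other lox libraries, and the second triple null library above its group. Triple null against FoxA3 null gave -0.64 (95% interval -1.65 to 0.37, limma adjusted p = 0.33), which did not pass. Against Cre alfp, where the libraries did not overlap, the limma adjusted p was 0.0118. Against lox it was 0.0167, and 0.0695 without the first lox library and 0.0974 without the second.

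The basement membrane pair Col4a1 and Col4a2, the chains of the common collagen IV trimer, are transcribed in opposite directions from annotated starts 21 bases apart (RefSeq, GRCm38.p6). Col4a1 was at 1.40, 2.03 and 0.249 RPKM in lox, 0.963, 0.814, 1.54 and 0.149 in Cre alfp, 0.939, 0.551, 0.596 and 0.356 in FoxA3 null and 0.244, 0.362, 0.160 and 0.214 in the triple null. Col4a2 was at 1.66, 2.05 and 0.191 RPKM in lox, 0.802, 0.617, 1.09 and 0.218 in Cre alfp, 1.21, 0.463, 0.426 and 0.244 in FoxA3 null and 0.401, 0.281, 0.142 and 0.183 in the triple null. Both were lowest in the same lox library and in the same Cre alfp library. Their difference between triple null and FoxA3 null did not pass (limma adjusted p = 0.318 and 0.411), and their call against lox, at adjusted p = 0.0454 and 0.0451, was lost when any 1 triple null library was left out (adjusted p of 0.0597 to 0.0911 for Col4a1 and 0.0520 to 0.0935 for Col4a2). Without the first or the second lox library the Col4a2 call was also lost (0.168 and 0.217), and Col4a1 was no longer above the filter. Both chains passed the filter only with the lox libraries, where they were highest, so their calls against lox are given as a description.

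Of the tested sinusoidal endothelial markers, genes of the cells that collagen IV underlies, most were lower in the triple null than in FoxA3 null. Of the 12 markers listed, 10 were tested in triple null against FoxA3 null and 6 fell, with none higher. Among all genes tested in this comparison, 12.3% passed as lower and 17.4% as higher. The summed level of the list ranged from 37.0 to 58.9 RPKM in FoxA3 null and from 10.7 to 22.8 in the triple null. It ranged from 47.6 to 79.8 in lox and from 27.1 to 96.0 in Cre alfp. None of the 12 was below 0.1 RPKM throughout a group. Of 12 stellate markers, 4 were tested and 2 fell, with sums of 28.3 to 38.2 RPKM in FoxA3 null and 7.31 to 26.5 in the triple null. The part of these cell types in the collagen differences was not tested, and in bulk RNA fewer cells of a type and less RNA per cell cannot be told apart. The summed level of the neutrophil markers was higher in the triple null, at 8.96 to 109 RPKM against 0.664 to 1.65 in FoxA3 null. Of these markers 2 of the 2 tested, S100a8 and S100a9, passed as higher, S100a9 having passed the filter only with the triple null. Ly6g and Mpo were not tested.

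In triple null against FoxA3 null, the tested fibril-associated chains gave smaller differences than Col18a1, Col27a1 and Col15a1, and the call of Col12a1 was less stable. Col12a1, which binds the surface of collagen I fibrils, was at 0.497, 0.369, 0.804 and 2.04 RPKM in FoxA3 null and at 1.50, 2.00, 1.90 and 2.06 in the triple null, where only the fourth FoxA3 null library reached the triple null range. Its rise of 0.64 (SE 0.22, limma adjusted p = 0.0433) was lost under 13 of 18 alternatives; without the first or the second FoxA3 null library the adjusted p was 0.114 and 0.127, without the third 0.0690, and without the second, the third or the fourth triple null library 0.0903, 0.0711 and 0.0977. In lox it was at 0.938, 1.55 and 0.660 RPKM and in Cre alfp at 1.48, 0.735, 0.739 and 0.833.

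Col14a1, another such chain, was at 1.11, 1.13 and 0.858 RPKM in lox, 1.91, 1.60, 3.10 and 0.585 in Cre alfp, 2.39, 1.79, 1.55 and 1.11 in FoxA3 null and 0.898, 1.18, 0.320 and 0.478 in the triple null. The difference between triple null and FoxA3 null was -0.66 (limma adjusted p = 0.0572) and missed the threshold, while the authors' deposited table gave -1.44 with an adjusted p of 0.00092. Against Cre alfp the limma adjusted p of 0.0480 rose to between 0.0537 and 0.155 when any 1 of 6 libraries was left out, the first 3 of Cre alfp and the first, the third and the fourth of the triple null. Col20a1 was at 1.45, 1.26 and 0.915 RPKM in lox, 1.63, 3.65, 1.49 and 1.45 in Cre alfp, 0.262, 0.250, 0.556 and 0.485 in FoxA3 null and 1.36, 0.699, 0.487 and 0.879 in the triple null. All FoxA3 null libraries were below all lox libraries for Col20a1, but that call too was lost without the first or second lox library or the first or second FoxA3 null library (adjusted p of 0.0692 to 0.106), and its call against Cre alfp without the third triple null library (0.0504).

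Col16a1, a further chain of this class, was at 0.274, 0.670 and 0.0321 RPKM in lox, 0.150, 0.523, 1.04 and 0.197 in Cre alfp, 0.444, 0.486, 0.423 and 0.664 in FoxA3 null and 0.825, 0.630, 0.238 and 0.630 in the triple null, below the filter in hepatocytes. Col4a3, a collagen IV chain of the kidney and lung basement membrane, was also below it and is named here after its values were seen. It was at 1.25, 0.416, 1.72 and 0.449 RPKM in the triple null against 0.0114, 0.0603, 0.156 and 0.0168 in FoxA3 null, 0.0646, 0.0680 and 0.0458 in lox and 0.290, 0.242, 0.222 and 0.999 in Cre alfp. Every triple null library was above every FoxA3 null and lox library. With a filter of 0.1 RPKM and a pseudocount of 0.1, added after the data were seen, its rise over FoxA3 null was 2.59 (SE 0.47, limma adjusted p = 0.00116), and over lox 2.52 (SE 0.51, adjusted p = 0.00166), while Cre alfp against lox, at 1.55 (0.111), and triple null against Cre alfp, at 0.97 (0.127), did not pass. In that fit 13.5% of all genes passed as higher in triple null over FoxA3 null and 21.2% over lox. The authors' deposited table of triple null against FoxA3 null lists 4.32 (adjusted p = 1.7e-17). Its usual partner chains Col4a4 and Col4a5 were at no more than 0.124 and 0.245 RPKM in the triple null. In the same fit with the lower filter, 3 other chains under the main filter were called, all lower. They were Col5a1 in triple null against FoxA3 null, at -1.09 (limma adjusted p = 0.0426), Col13a1 in triple null against lox, at -1.71 (0.0101), and against Cre alfp, at -1.60 (0.0100), and Col4a5 in triple null against Cre alfp, at -0.83 (0.0362), and in FoxA3 null against lox, at -0.98 (0.0320). In that fit 10.2% of all genes were lower in the triple null than in FoxA3 null, 13.5% lower than in lox and 13.6% lower than in Cre alfp, and 10.4% were lower in FoxA3 null than in lox.

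The fibroblast chains Col1a1 and Col3a1, which mark stellate cells and fibroblasts, were low in hepatocytes, reaching at most 0.208 and 1.28 RPKM. Col1a1 was at 0.0356, 0.0660 and 0.0106 RPKM in lox, 0.0461, 0.0171, 0.174 and 0.0162 in Cre alfp, 0.0886, 0.0579, 0.0679 and 0.0975 in FoxA3 null and 0.208, 0.0925, 0.0258 and 0.0494 in the triple null. For Col3a1 the values were 0.544, 0.602 and 0.167 RPKM in lox, 0.643, 0.597, 1.28 and 0.272 in Cre alfp, 0.688, 0.713, 0.696 and 0.695 in FoxA3 null and 0.522, 0.904, 0.235 and 0.319 in the triple null. The FoxA3 null libraries were nearly equal for Col3a1 and all above lox, and the other pairs of hepatocyte groups overlapped, as did all pairs for Col1a1. Neither passed the filter. With a filter and a pseudocount of 0.1 RPKM, chosen after the data were seen, Col3a1 passed in no hepatocyte comparison (limma adjusted p of 0.285 to 0.844), with a difference of -0.55 (SE 0.42) between triple null and FoxA3 null, and Col1a1 was still under the filter.

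The other chains of collagens I and V, apart from Col5a3, stayed under 1 RPKM in all hepatocyte libraries but 1, a triple null library with Col5a2 at 1.65. Col1a2, the partner of Col1a1, was at 0.292, 0.424 and 0.150 RPKM in lox, 0.333, 0.419, 0.879 and 0.197 in Cre alfp, 0.370, 0.357, 0.372 and 0.342 in FoxA3 null and 0.273, 0.398, 0.144 and 0.109 in the triple null. Col5a1 was at 0.164, 0.243 and 0.196 RPKM in lox, 0.263, 0.196, 0.332 and 0.0342 in Cre alfp, 0.242, 0.387, 0.356 and 0.108 in FoxA3 null and 0.0704, 0.128, 0.0439 and 0.0372 in the triple null. Col5a2 was at 0.194, 0.301 and 0.244 RPKM in lox, 0.320, 0.126, 0.243 and 0.693 in Cre alfp, 0.190, 0.169, 0.508 and 0.179 in FoxA3 null and 0.527, 0.162, 1.65 and 0.0864 in the triple null. The third triple null library thus held the highest hepatocyte value of Col5a2 and the highest of Col4a3.

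For collagen VI, Col6a1 was at 0.300, 0.303 and 0.125 RPKM in lox, 0.335, 0.242, 0.251 and 0.0900 in Cre alfp, 0.336, 0.283, 0.348 and 0.126 in FoxA3 null and 0.196, 0.219, 0.0392 and 0.0607 in the triple null. Col6a3 was at 0.305, 0.536 and 0.140 RPKM in lox, 0.335, 0.266, 0.334 and 0.374 in Cre alfp, 0.158, 0.129, 0.540 and 0.282 in FoxA3 null and 0.259, 0.420, 0.0312 and 0.458 in the triple null. Col4a5 was at 0.368, 0.433 and 0.185 RPKM in lox, 0.391, 0.299, 0.342 and 0.577 in Cre alfp, 0.145, 0.0459, 0.0910 and 0.186 in FoxA3 null and 0.245, 0.124, 0.141 and 0.212 in the triple null. All FoxA3 null and all triple null values of Col4a5 lay under all Cre alfp values, and its other pairs of hepatocyte groups overlapped. Col6a2 was at 0.227, 0.159 and 0.0495 RPKM in lox, 0.174, 0.142, 0.115 and 0.116 in Cre alfp, 0.179, 0.147, 0.146 and 0.213 in FoxA3 null and 0.126, 0.0638, 0.0638 and 0.0343 in the triple null. All triple null values of Col6a2 thus lay under all FoxA3 null values, but with the lower filter and pseudocount the difference of -0.68 (SE 0.26, limma adjusted p = 0.0734) did not pass, whereas triple null and FoxA3 null overlapped for Col6a1 and Col6a3. Col25a1, a transmembrane chain of neurons, was at 0.250 RPKM or less in every hepatocyte library, the highest being the third lox library. Col13a1, another transmembrane chain, ranged from 0.0148 to 0.986 RPKM in hepatocytes and from 0.834 to 1.68 in liver, and the fibrillar chain Col11a2 from 0.127 to 1.44 in hepatocytes.

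In whole liver Col18a1 was again the highest chain, but the other chains made up more of the sum. Control liver against lox hepatocytes, fitted with all 21 libraries and compared across separate sets of samples, had 12 of 23 tested chains higher and 5 lower, with 27.3% of all genes higher and 33.2% lower. The median chain stood at 0.52, against -0.06 over all genes. The summed level was 154 RPKM in both control liver libraries, in which Col18a1 made up 54.8% and 57.8%.

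The 12 higher chains were led by Col3a1 and Col14a1. Col3a1 was at 10.3 and 9.45 RPKM in control liver, a difference of 2.93 from lox (SE 0.21, limma adjusted p = 2.5e-09). Col14a1 was at 14.1 and 11.3 RPKM, a difference of 2.75 (SE 0.28, limma adjusted p = 2.7e-07). Both liver libraries were above every hepatocyte library for these chains. Col1a1 was at 1.74 and 1.59 RPKM, Col1a2 at 3.81 and 2.63, Col5a1 at 1.53 and 1.06 and Col5a2 at 1.26 and 0.864, with differences of 1.36, 1.70, 0.93 and 0.72.

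The difference of Col4a1 came next in size after these 2, above that of Col1a2. Col4a1 was at 5.57 and 7.63 RPKM and Col4a2 at 5.22 and 5.95, with differences of 1.85 and 1.63 (limma adjusted p = 4.7e-05 and 0.00053). Col6a1 at 3.04 and 1.99, and Col6a3 at 3.09 and 1.86 RPKM, were higher by 1.49 and 1.38, and Col6a2, at 0.630 and 0.655, by 0.52. Col16a1, at 3.60 and 1.28 RPKM, was higher by 1.32, and without the first control library this was lost (adjusted p = 0.139), as was Col5a2 (0.175). Of the 12 higher chains 9, all but Col14a1, Col4a1 and Col4a2, reached 1 RPKM in no more than 1 hepatocyte library and so entered the test through liver, the side on which they were high.

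Among the stellate markers 10 of 10 tested passed as higher in control liver, and 10 of 12 endothelial and 6 of 8 Kupffer markers, with none lower. Over all genes 27.3% passed as higher and 33.2% as lower. Of the higher markers 6, 1 and 1 passed the filter through liver alone, so the counts are partly set by the filter. The stellate sum was 105 to 117 RPKM in control liver and 23.5 to 30.6 in lox. Liver and hepatocyte libraries differ in their cells by design, and how much of the rise in collagen chains goes with these cells was not tested.

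The chains lower in control liver than in lox hepatocytes were Col27a1 by -2.20, Col5a3 by -1.36, Col11a2 by -0.74, Col20a1 by -0.72 and Col18a1 by -0.51. Col27a1 had the smallest p of these (limma adjusted p = 3.5e-05). Col11a2 passed the filter only with the lox hepatocytes, where it was high, so its call is given as a description. Col18a1 (limma adjusted p = 0.0119) was lost under quantile normalization, where its difference was -0.01, and without the first control library (0.0766). Col5a3 was lost without either control library or without the first or second lox library (adjusted p of 0.0983 to 0.171), Col11a2, which reached 1 RPKM in 1 lox and 1 labelled null library only, without either control library or the second lox library (0.0527 to 0.105), and Col20a1 without the second control library (0.0794). With 1 control library left out, the lone one is assumed to vary like the other groups. Col15a1 stood at 3.13 and 4.15 RPKM in control liver, the second value just above the highest lox library at 4.07, and its difference of -0.01 (95% interval -0.59 to 0.57) did not pass.

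**Figure D4:**
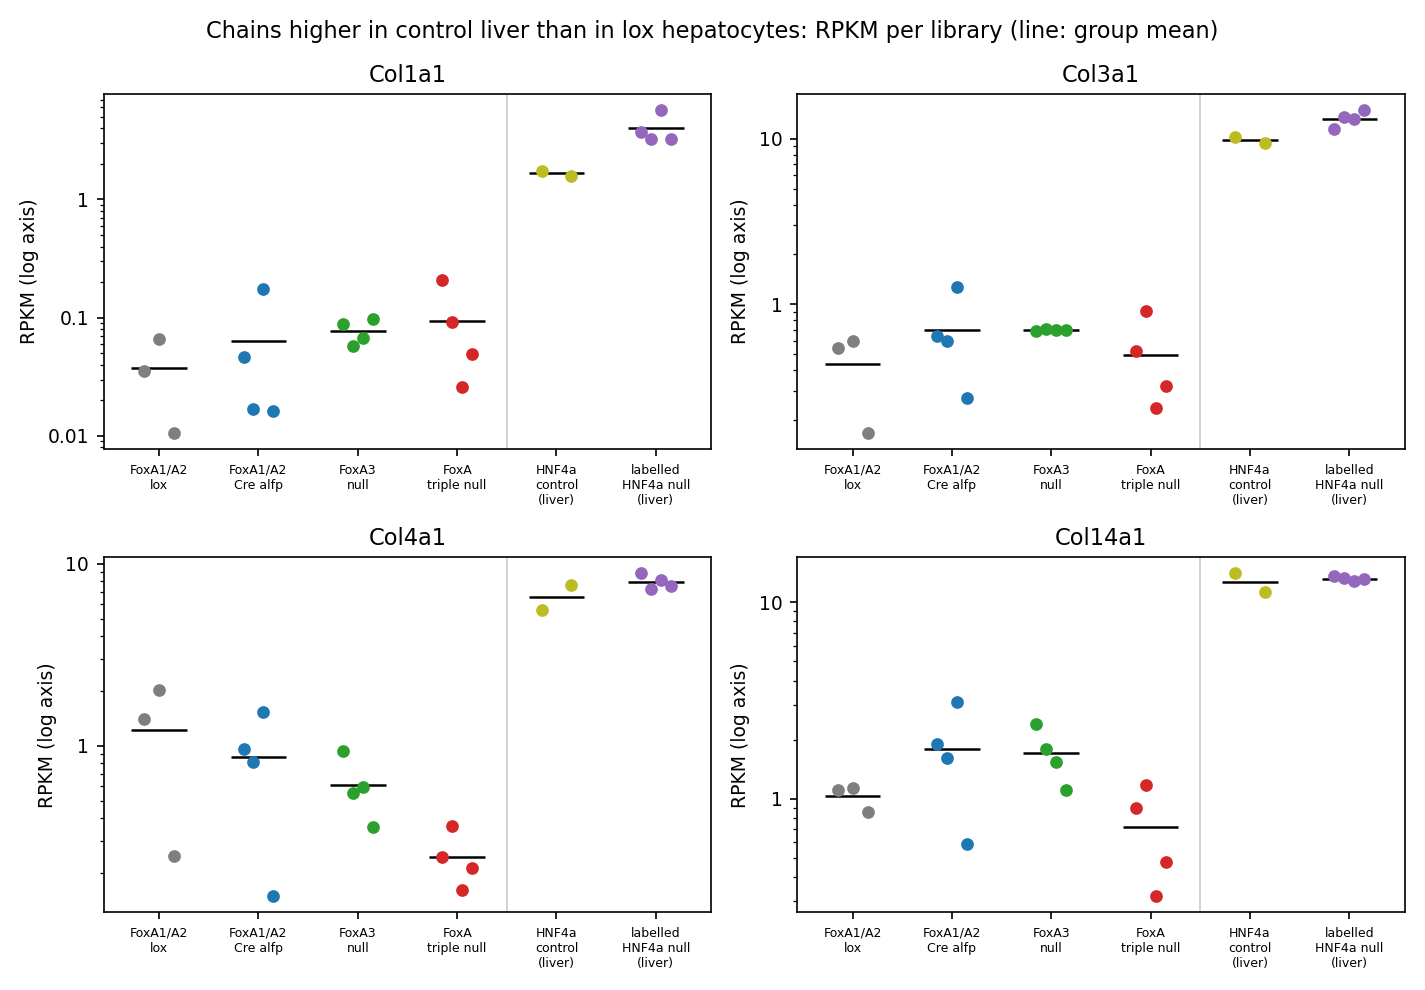
RPKM per library (log axis) of Col1a1, Col3a1, Col4a1 and Col14a1 by group, with a line at each group mean. All 6 liver libraries lie above all 15 hepatocyte libraries in each panel, and the hepatocyte groups overlap for Col1a1.

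Within liver, the libraries labelled HNF4a null were compared with control liver. The median of all 12434 genes tested was shifted by 0.34, so differences are given as fitted and relative to it. As fitted, 6 of 21 chains were higher and 4 lower, with 41.1% of all genes higher and 11.7% lower. With libraries scaled to equal medians 1 chain, Col25a1, was higher and 5 were lower, Col18a1 in addition to the 4. The median chain was at 0.39 as fitted and 0.05 relative to all genes.

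The 4 lower chains passed under median scaling and quantile normalization as well. Col5a3 was at 3.5 and 3.01 RPKM in control liver and at 0.140, 0.165, 0.0612 and 0.214 in the labelled null, a ratio of means of 22.5. It fell by 1.89 as fitted (SE 0.13, limma adjusted p = 9.8e-05) and by 2.23 relative to all genes. Col27a1 was at 4.22 and 5.11 RPKM in control and at 1.24, 1.00, 1.09 and 0.929 in the labelled null. It fell by 1.45 as fitted (SE 0.13, limma adjusted p = 0.00023), or by 1.79 relative to all genes.

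Col15a1 was at 3.13 and 4.15 RPKM in control and at 0.718, 0.373, 0.126 and 1.10 in the labelled null, and fell by 1.58 (SE 0.26, limma adjusted p = 0.00307), or by 1.92 relative to all genes. Col12a1 was at 1.00 and 1.76 RPKM in control and at 0.283, 0.467, 0.323 and 0.373 in the labelled null, and fell by 0.79 (SE 0.17, limma adjusted p = 0.00884), or by 1.13 relative. In none of these 4 chains did the groups overlap. In all, 5 of the 21 tested chains did not overlap with the labelled null lower, as was so for 14.4% of all genes tested. Of the 4, Col27a1 alone passed the filter in the labelled null libraries themselves, and Col5a3, Col15a1 and Col12a1 entered the test through control liver, where they were high; without any filter on low values they also passed (limma adjusted p = 0.000424, 0.0169 and 0.0191). Col27a1 and Col15a1 were thus lower here as well as in both FoxA deletion pairs, which share no library with this comparison, whereas Col12a1 was lower here and higher in the triple null.

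Col18a1 was at 84.2 and 89.3 RPKM in control liver and at 75.8, 76.5, 76.7 and 79.9 in the labelled null. The groups did not overlap, but the difference of -0.17 as fitted (95% interval -0.36 to 0.03, limma adjusted p = 0.124) did not pass; relative to all genes it was -0.50. With libraries scaled to equal medians it passed as lower, at -0.43 (SE 0.08, limma adjusted p = 0.00548), and under quantile normalization it did not, at -0.12 (0.285). The authors' deposited table lists -0.61 with an adjusted p of 2.0e-09, from a mean normalized count of 5274.

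The higher chains other than Col25a1 depended on the scaling. Col25a1 was at 0.274 and 0.268 RPKM in control and at 1.31, 0.993, 1.78 and 2.10 in the labelled null, a difference of 0.98 as fitted (SE 0.20, limma adjusted p = 0.00692) and 0.65 relative to all genes, also called under median scaling and quantile normalization. Col25a1, Col20a1 and Col4a5 reached 1 RPKM in no control library and Col5a2 in 1, so these 4 of the 6 higher chains passed the filter only with the labelled null libraries, where they were high, and their calls are given as a description. Col1a1 was at 3.74, 3.28, 5.70 and 3.25 RPKM in the labelled null against 1.74 and 1.59, a rise of 0.88 as fitted (SE 0.20, limma adjusted p = 0.0110) and 0.54 relative to all genes. Col1a1, Col20a1, Col4a5, Col5a2 and Col3a1 were no longer called under median scaling or quantile normalization, nor without either control library (limma adjusted p of 0.0501 to 0.22), although their differences stayed higher there, for Col1a1 at 0.92 and 0.84. The call was also lost without the third labelled null library for Col3a1, Col4a5 and Col5a2, without the fourth for Col3a1 and Col5a2, without the second for Col3a1 and without the first for Col5a2 (0.0521 to 0.0744).

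Col20a1 was at 0.377 and 0.295 RPKM in control and at 1.29, 1.13, 1.36 and 0.737 in the labelled null. Col4a5 was at 0.407 and 0.625 against 1.13, 1.10, 1.27 and 2.16. Col5a2 was at 1.26 and 0.864 against 2.15, 1.44, 1.91 and 2.26, and Col3a1 at 10.3 and 9.45 against 11.5, 13.5, 13.1 and 14.9. These 4 chains, like Col25a1 and Col1a1, did not overlap between the groups, and relative to all genes they were higher by 0.33, 0.32, 0.17 and 0.05. In all, 9 of the 21 tested chains did not overlap with the labelled null higher, as was so for 52.6% of all genes tested. Without the first control library 5 chains passed, Col27a1, Col15a1, Col25a1, Col6a1 and Col6a3, and without the second 3, Col27a1, Col15a1 and Col25a1. Col5a3 and Col12a1 were then no longer above the filter and had no test. With 1 control library left, the spread comes from the labelled null libraries alone and the lone control is assumed to vary like them.

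The other chains of collagens I, IV, V, VI, XIV and XVI shown here did not pass within liver, with differences relative to all genes from -0.40 to 0.14. Col1a2 was at 3.92, 4.75, 4.23 and 5.80 RPKM in the labelled null (relative difference 0.09), Col4a1 at 8.86, 7.24, 8.15 and 7.51 (-0.09) and Col4a2 at 8.35, 11.7, 5.16 and 8.55 (0.14). Col6a1 was at 3.16, 4.10, 3.67 and 4.29 RPKM (0.12), Col6a3 at 3.05, 3.62, 4.09 and 3.82 (0.10) and Col5a1 at 1.16, 1.14, 1.04 and 1.44 (-0.40). Col14a1 was at 13.6, 13.2, 12.8 and 13.1 RPKM (-0.28) and Col16a1 at 1.28, 1.72, 3.29 and 5.75 (-0.16). For the marker counts that follow, 41.1% of all genes passed as higher and 11.7% as lower. Of the 10 tested stellate markers 2 passed as higher, with a median relative difference of -0.03. Of the 12 endothelial markers 3 did, with a median of -0.20. Among cholangiocyte markers 7 of 7 tested passed as higher, 5 of which passed the filter only with the labelled null libraries. The cholangiocyte sum was 138 to 236 RPKM in the labelled null against 17.9 and 18.7 in control. Of 8 portal fibroblast and myofibroblast markers 4 were tested and 3 passed as higher, Entpd2, Fbln2 and Postn, by 0.75, 0.62 and 0.60 relative to all genes, and none as lower; Fbln2 passed the filter only with the labelled null libraries. The sum of that list was 9.60 and 12.2 RPKM in control and 18.1 to 23.5 in the labelled null. The neutrophil markers S100a8 and S100a9, 2 of 2 tested, also passed as higher and likewise passed the filter only with the labelled null, with a sum of 2.94 to 13.9 RPKM against 0.619 and 1.66. Of 8 hepatocyte markers 4 passed as lower, led by Asgr1, Asgr2 and Alb at -5.22, -4.24 and -1.67 relative to all genes, and 1, Cps1, as higher, with a sum of 21330 and 22040 RPKM in control and 11400 to 13180 in the labelled null. Of 8 Kupffer and macrophage markers 2 passed as higher, a smaller share than among all genes. They were Marco and Cd5l, by 1.48 and 0.16 relative to all genes. The part of these cell types in the differences of the chains was not tested.

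Some chains under the filter were called within liver in the fit with a filter and a pseudocount of 0.1. Col11a2 was at 0.0854 and 0.0299 RPKM in control and at 0.752, 1.42, 0.477 and 0.436 in the labelled null, a difference of 2.36 (limma adjusted p = 0.00991). Col7a1 was at 0.0112 and 0.0377 RPKM in control and at 0.222, 0.279, 0.154 and 0.246 in the labelled null, a difference of 1.38 (limma adjusted p = 0.0170). Both are higher calls, as were those of 30.7% of all genes in that fit, and both passed the lower filter only with the labelled null libraries. For control liver against lox the same fit also called Col10a1, Col17a1, Col8a1, Col8a2 and Col4a4 higher, by 0.78 to 1.94, and Col7a1 lower, by -1.69. In it 25.8% of all genes were higher and 24.8% lower. None of these chains reached 0.5 RPKM in any liver library. Col10a1, Col17a1, Col8a1 and Col8a2 stayed under 0.1 RPKM in every hepatocyte library. They passed the lower filter through liver alone, where they were high. Col4a4 reached at most 0.124 RPKM in hepatocytes. The higher calls are given as a description.

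**Figure D5:**
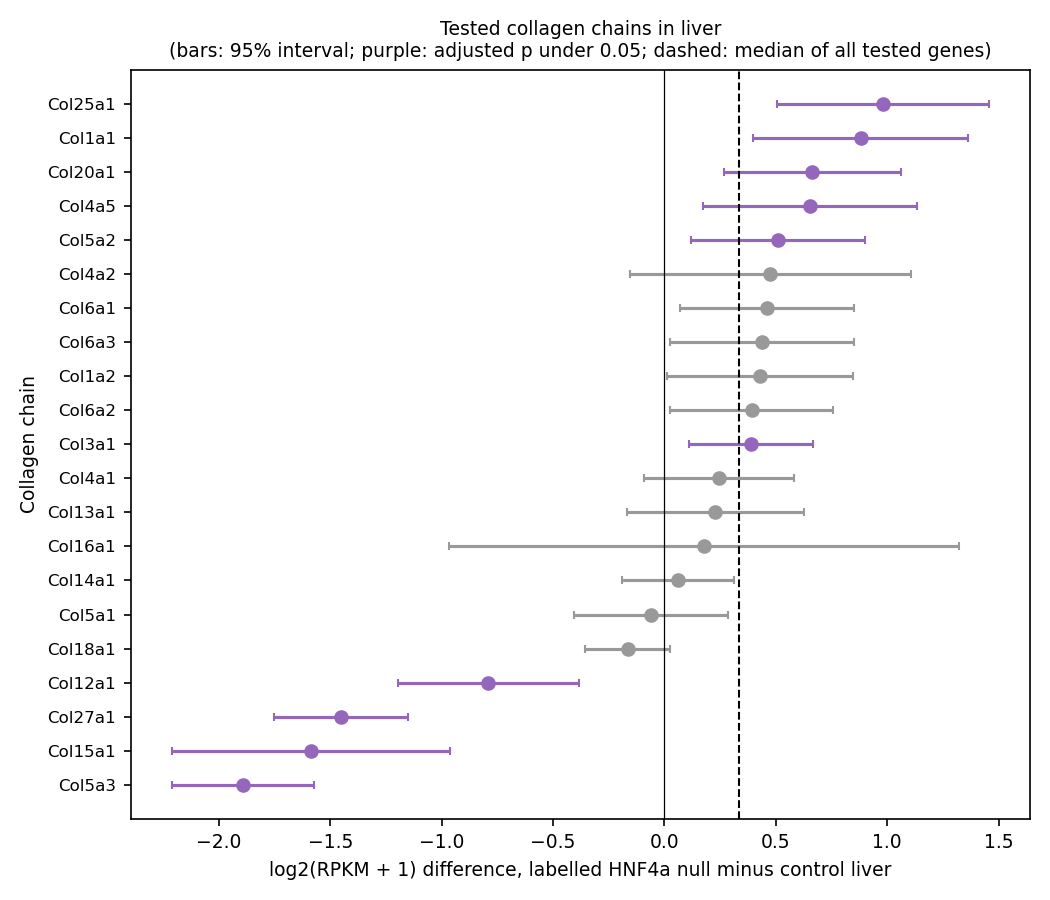
Differences in log2(RPKM + 1) with 95% intervals for the 21 tested chains, libraries labelled HNF4a null minus control liver, with a dashed line at the median of all genes, 0.34. Col5a3, Col15a1, Col27a1 and Col12a1 lie apart on the lower side, and of the 6 chains that passed as higher Col3a1 lies nearest the dashed line.

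The genes that make, process and bind collagen did not move as a block. In triple null against FoxA3 null, 1 of 10 tested synthesis genes rose and 2 fell, where 17.4% of all genes passed as higher and 12.3% as lower, so these counts are near those shares. P4hb, the beta subunit of prolyl 4-hydroxylase and a general disulfide isomerase, rose from 818 to 1011 RPKM in FoxA3 null to 1438 to 1649 in the triple null, by 0.72 (limma adjusted p = 0.00015). P4ha2, a catalytic subunit of the same enzyme, fell by 0.47, and Ppib, a prolyl isomerase, by 0.45 (limma adjusted p = 0.0303 and 0.0222). Of the processing genes 1 of 2 fell: Bmp1, the protease that removes the C-propeptide of fibrillar procollagens, was at 36.2 to 53.0 RPKM in FoxA3 null and at 14.9 to 19.0 in the triple null (-1.25, limma adjusted p = 2.5e-05). The single tested degradation gene, the membrane collagenase Mmp14, rose from 5.34 to 10.9 RPKM to 15.4 to 20.0 (0.96, limma adjusted p = 0.00219).

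Of 4 tested collagen receptors 2 fell and 1 rose. The collagen-binding tyrosine kinase Ddr1, which passed the filter through the triple null alone, was higher by 0.86, at 0.609 to 1.38 RPKM against 0.162 or less, and the integrin chains Itgb1 and Itga1 fell by 0.68 and 0.37 (limma adjusted p = 0.00011, 0.00551 and 0.0492). Among other matrix genes 3 of 10 fell and 2 rose. Nid1, which links laminin and collagen IV networks, rose from 0.487 to 0.670 RPKM in FoxA3 null to 7.33 to 8.37 in the triple null (2.46, limma adjusted p = 7.9e-10). Fn1, plasma fibronectin, fell from 99.8 to 197 RPKM to 35.7 to 61.4 (-1.57, limma adjusted p = 6.7e-05), and Hspg2, the basement membrane proteoglycan perlecan, by 0.86 (limma adjusted p = 0.00444).

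In the libraries labelled HNF4a null the same lists were described with the all-gene shift in view, and with 41.1% of all genes passing as higher and 11.7% as lower. Of 13 synthesis genes 2 rose and 4 fell: P4ha2 rose by 1.36 and Crtap by 0.88 (1.02 and 0.54 relative to all genes), and P4ha1 fell by 1.09 (1.42 relative to all genes, limma adjusted p = 0.00054). Of 5 processing genes 2 rose, Loxl2 and Pcolce, by 0.77 and 0.68 (0.43 and 0.35 relative), and Bmp1 fell by 0.69. Mmp14 rose by 0.64 as 1 of 3 tested degradation genes (0.30 relative). Among receptors 2 of 5 rose, Ddr1 and Itgb1, by 0.92 and 0.71, and Itga1 fell by 0.32. Among other matrix genes 8 of 14 rose and none fell, led by Fn1 at 1.89, Nid2 at 1.35 and Lum at 1.00 (1.55, 1.01 and 0.66 relative to all genes), with a median of 0.15 relative to all genes for the list. Of these higher genes Ddr1, Loxl2, Nid2 and Fbn1 passed the filter only with the labelled null libraries. Bmp1 was lower in both comparisons, whereas Fn1 fell in the triple null and rose here; these opposite directions were not tested against each other.

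The authors' deposited tables set earlier stages of liver against adult hepatocytes, and the libraries behind them are not given in the sources used here. In the authors' deposited table of hepatoblasts, 26 of 32 listed chains were higher than in the adult at adjusted p under 0.05 and 4 were lower, against 41.3% and 37.9% of all listed genes. The median chain there had a log2 fold change of 5.83, against 0.07 over all genes. The highest in the authors' deposited table were Col2a1 at 12.9, Col1a1 at 12.4 and Col11a1 at 12.3. In the hepatocyte libraries of the matrix Col2a1 and Col11a1 reached at most 0.00071 and 0.00084 RPKM. How genes came to be listed is not given in the sources used here. A chain may be listed through the stage where it is high, so these counts and the median are given as a description. The 4 lower chains in the authors' deposited table were Col5a3 at -5.71, Col27a1 at -1.16, Col20a1 at -1.06 and Col18a1 at -0.87.

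In the authors' deposited table of the newborn stage, 14 of 23 listed chains were higher and 1 was lower, against 31.6% and 31.7% of all listed genes. Col1a1 stood at 4.41, Col4a5 at 3.63 and Col3a1 at 3.41 in the authors' deposited table, and Col11a2 was the lower one at -1.90. Col18a1, lower in hepatoblasts, was higher in newborn at 2.03, and Col27a1 at -0.16 and Col15a1 at 0.12 did not pass in the authors' deposited table. The limit on how chains came to be listed holds for the newborn counts as well. The adult reference appears in both tables, so their values are set side by side without a test. In the authors' deposited tables of triple null, Col18a1 was lower by -2.10 against undeleted controls and by -1.79 against Cre alfp, and Col4a3 was higher by 3.31 against undeleted controls but did not pass against Cre alfp, at 1.29 (adjusted p = 0.14).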

How the data were processed

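RNA-seq expression was analysed in 21 mouse libraries. The authors deposited RPKM values in 1 matrix, read by column name; 9 columns that matched no sample were not used. The submitters' processing notes name Cufflinks 2.2.1, SAMtools, DESeq2 and the mm9 build, with no role or order; the aligner is not given in the sources used here. Their own comparisons were deposited by the authors as log2 fold changes with p-values; per the file headers 2 of them also give a mean normalized count. The table against Cre alfp held unadjusted p-values, which were adjusted here, and the sign of the table against undeleted controls was turned.

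Group differences were fitted in R 4.3.3 by limma 3.58.1 (eBayes with a trend, no covariates) on log2(RPKM + 1), which understates changes of low genes, with Benjamini-Hochberg adjustment over all genes and a threshold of 0.05. The 15 hepatocyte libraries shared 1 fit (genes reaching 1 RPKM in 3 libraries or more), the 6 liver libraries another (in 2 or more), and all 21 entered a separate fit (2 or more) for liver against hepatocytes. The fit was tested on simulated data. Summaries, the promoter search and figures used Python 3.11.15 with pandas 2.3.3.

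The collagen members and all gene lists were chosen with earlier results of these data known. Chains are given in every library where they are Col1a1 or Col3a1, or passed a comparison with a mean RPKM of at least 1 in a group of it; the others are given by range. From each list at most 3 passing genes with the largest difference are named. HNF4a columns carry no replicate numbers and are numbered in column order. The labels do not say that libraries came from separate animals, so p-values measure the spread between these libraries, which may be technical. No 2 libraries were identical. Absolute depth is unknown; relative depth, from constant ratios between the low RPKM values of a pair of libraries, agreed within 2% under every reference library for 16 libraries and not for 5, for which the median was taken. Same-numbered libraries did not deviate together. Alternatives tried were a pseudocount of 0.1, other filters on low values, median scaling, quantile normalization, a minimum difference of 1, array weights, a replicate block, narrower or wider fits and leaving out each library.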

Additional observations from a re-analysis of the deposited data

Results flagged for a closer look

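Among 92 pairs of a tested chain and a group of 4 libraries, 8 had 1 library apart from the other 3 by Dixon's criterion at 95%, a criterion that chance meets in about 5% of groups. Col4a3 was at 0.999 RPKM in the fourth Cre alfp library, against 0.222 to 0.290 in the others, and at 0.766 in the second library labelled HNF4a null, against 0.133 to 0.240. Col4a5 was at 2.16 RPKM in the fourth library labelled HNF4a null, against 1.10 to 1.27. Col5a2 was at 0.508 RPKM in the third FoxA3 null library, against 0.169 to 0.190, and Col27a1 at 9.34 in the same library, against 6.11 to 6.51. Col5a3 was at 5.62 RPKM in the second triple null library, against 1.49 to 2.04. In Cre alfp, Col12a1 was at 1.48 RPKM in the first library, against 0.735 to 0.833, and Col20a1 at 3.65 in the second, against 1.45 to 1.63.

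The response of Col18a1 to deletion of FoxA1 and FoxA2 differed between libraries without and with FoxA3, with an interaction of -1.93 on the log2(RPKM + 1) scale (limma, Benjamini-Hochberg adjusted p = 4.02e-05). Every triple null library was below every FoxA3 null library, whereas Cre alfp and lox overlapped. The pairs also differ in the Cre used and in the Foxa1 and Foxa2 transcript left, and FoxA3 status cannot be told apart from those.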

How the results depend on the processing

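No called difference of a chain changed sign under any alternative run. Chains that were not called could: Col5a3 in Cre alfp against lox was at -0.0088 as fitted and 0.03 with a pseudocount of 0.1 and a filter of 0.1 RPKM, and in the interaction Col4a2 went from 0.06 to -0.28 and Col20a1 from -0.015 to 0.31. Of the counts of passing chains under an alternative, 113 were within 1.5 times of the reported count and 26 were not. For single chains called as fitted, 613 results under an alternative kept the call and 122 lost it. Chains that gained a call, and chains that fell under the filter in an alternative, are not in this tally. Col18a1, Col27a1 and Col15a1 kept their calls in triple null against FoxA3 null under all 18 alternatives run for each.

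For the interaction, 3 chains passed in place of 1 with a pseudocount of 0.1, and 3 with that pseudocount and a filter of 0.1 RPKM, an alternative chosen after seeing the data; 2 passed with array weights. FoxA3 null against lox, with 2 chains, gave 1 without a filter on low values, 1 with a minimum difference of 1, 1 with only the groups compared and 4 with array weights. A minimum difference of 1 left 3 of 6 chains for triple null against Cre alfp, 3 of 10 for the libraries labelled HNF4a null and 11 of 17 for liver against lox. The libraries labelled HNF4a null gave 6 chains in place of 10 under median scaling and 5 under quantile normalization. Leaving out 1 library at a time gave 3 to 5 chains for triple null against FoxA3 null, 2 throughout for Cre alfp against lox, 1 to 2 for the interaction, 3 to 6 for triple null against lox, 4 to 7 against Cre alfp, 1 to 5 for FoxA3 null against lox, 3 to 10 for the libraries labelled HNF4a null and 12 to 16 for liver against lox. Apart from the alternatives that themselves raise the threshold or take out libraries, the cause was not tested.

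Libraries with the same replicate number share only a number: their deviations correlated at -0.36 to 0.17. With a replicate block 2 chains passed for the interaction, 1 for FoxA3 null against lox, and the other hepatocyte counts stayed within 1.5 times; at most 2 of 3 or 1 of 4 libraries correlated best with their own number. No paired analysis was possible for the liver comparisons because their columns carry no numbers. Liver libraries were shallowest, and chains under the filter were tested only with the lower filter.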
